A study of Mus musculus with 10 samples.

Results

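Collagen genes were examined in brown adipose tissue of mice labelled Sirt3 KO or WT. They were all genes whose platform annotation has a symbol of the form Col, a number, the letter a and a number, and each was read by its brightest probe set (by mean signal, 10 arrays). This gave 42 collagen genes of 18193 genes in all. They were sorted by the kind of structure their chains build: 11 fibrillar chains, 6 basement membrane chains (type IV), 2 multiplexins, 5 beaded filament chains (type VI), 9 FACIT chains (fibril-associated collagens with interrupted helices), 3 short-chain network collagens, 4 transmembrane collagens, and Col7a1 and Col26a1.

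The 10 arrays were 5 of mice labelled KO (KO 1 to KO 5), which lack Sirt3 per the labels, and 5 of WT mice (WT 1 to WT 5). Both groups were untreated littermates, about 1 year old and of 129 strain background, and each Affymetrix array, hybridised from 6 ug of total RNA, was taken as a separate mouse. Sirt3 encodes a mitochondrial deacetylase, and the labels do not say in which cells or by which allele it was deleted. Values are log2 signals, so a difference of 1 log2 unit would be a doubling. A probe set's level cannot be set against that of another probe set, and only the same gene is compared between arrays.

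Collagens are secreted proteins whose chains wind around each other into a helix, and they make up most of the extracellular matrix. Fibrillar collagens, chiefly types I, III and V, form the rope-like fibres of connective tissue and are made mainly by fibroblasts. Type IV collagen forms the flat meshwork of basement membranes, which in fat surrounds each adipocyte and lines each capillary. Type VI collagen forms beaded filaments between these structures and is abundant in adipose tissue.

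No collagen passed the test between arrays labelled KO and WT. By limma, 0 of 42 collagens had a Benjamini-Hochberg adjusted p under 0.05 over all genes, where the share among all genes was 0.0%. At an unadjusted p under 0.05 there was 1 collagen, Col2a1, which was lower. The share of all genes at that level was 4.68%, with 1.85% higher and 2.83% lower. In 0 of 42 collagens did the 5 KO values lie wholly on one side of the 5 WT values (0.627% of all genes did so). Differences (KO minus WT) ranged from -0.24 log2 units in Col14a1 to 0.33 in Col18a1. The mean was higher in arrays labelled KO for 26 collagens and lower for 16, or 61.9% higher, against 43.9% of all genes. The median difference was 0.021 log2 units over the collagens and -0.013 over all genes. In this bulk tissue, fewer cells of a type and less RNA per cell cannot be told apart.

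How small a difference these arrays could have missed differed between collagens. The 95% confidence interval lay wholly within 0.5 log2 units of 0 for 36 of the 42 collagens. It reached further for 6, and the widest was that of Col14a1 (-0.79 to 0.32). Of the 42, 15 had a mean signal below the array medians, and some of the narrow intervals are theirs. Col24a1, at a mean signal of 2.66, had -0.11 to 0.11. For such dim probe sets a narrow interval does not show that the transcript was unchanged. The median within-group SD was 0.150 log2 units for collagens and 0.124 for all genes. It was 0.214 for the fibrillar and 0.155 for the type IV chains.

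Facts of the whole set bear on these values. Array medians lay between 5.58 and 5.61, and pairwise correlations between arrays between 0.988 and 0.997. Sirt3 itself was not lower in arrays labelled KO: it read 10.22 to 10.40 there and 10.03 to 10.28 in WT. It was higher there by 0.19 ± 0.061 (SE, limma unadjusted p = 0.0096, adjusted p = 0.914), so directions below refer to the labels. Which exons the knockout removed is unknown here, so this probe set may not check the labels. The mean of 19 skeletal muscle markers spread far more than any collagen: it was 5.76, 11.18, 5.52, 11.09 and 10.08 in KO 1 to 5, and 11.19, 11.67, 11.18, 9.57 and 7.67 in WT 1 to 5. Of 4 control transcripts with probe sets at both ends, a sign of RNA quality, 1 separated the labels. The 3' minus 5' signal of the control transcript Pcx was 2.88 ± 0.07 in arrays labelled KO and 3.25 ± 0.20 in WT (SD, n = 5 each; exact permutation p = 0.0079). The same quantity differed (KO minus WT) by 0.05 for Actb, -0.02 for Gapdh and -0.08 for Tfrc (exact permutation p = 0.63, 0.079 and 0.29). The part of muscle RNA and of RNA quality in the differences was not tested, apart from a fit with the muscle marker mean as a covariate.

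**Figure D1:**
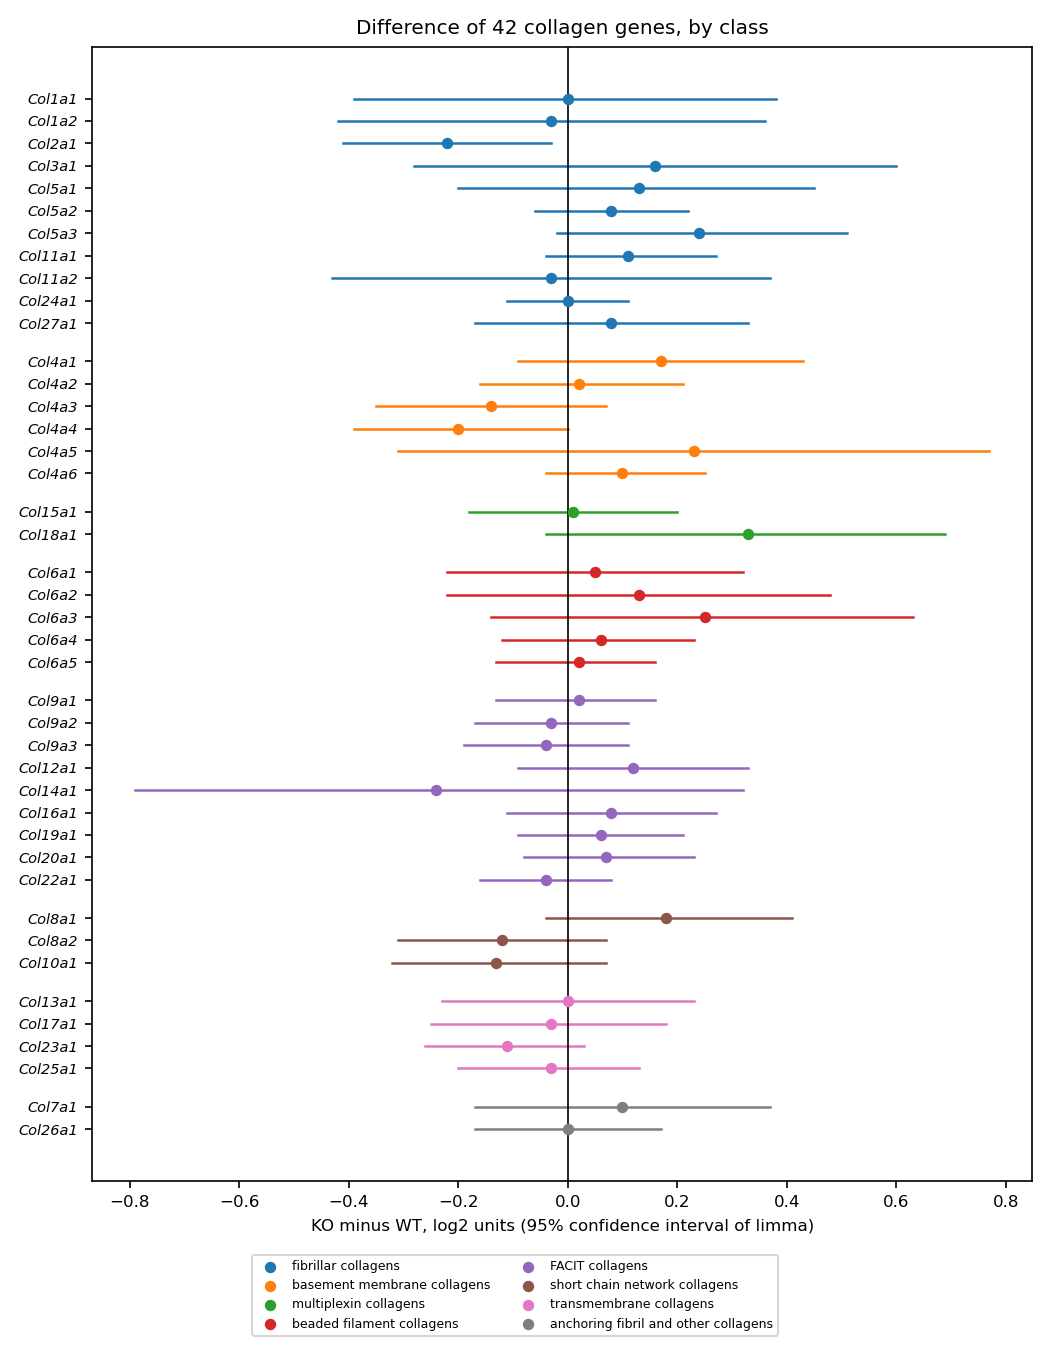
Difference between arrays labelled KO and WT (x axis, log2 units, KO minus WT) for each of 42 collagens (y axis), grouped by class, with points for estimates and lines for 95% confidence intervals of limma (5 arrays per group). The interval excludes 0 for Col2a1 alone, and no collagen passes after adjustment over all genes.

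Type I collagen, the main fibre-forming collagen, is built from chains of Col1a1 and Col1a2, and neither passed the test. Col1a1 read 7.41, 8.31, 8.11, 7.80 and 8.34 in KO 1 to 5, and 8.20, 8.05, 7.89, 8.17 and 7.66 in WT 1 to 5. The lowest and the highest of the 10 values were both in arrays labelled KO, and the WT values lay between them. KO minus WT was -0.00096 log2 units (95% confidence interval -0.39 to 0.38, or 0.766 to 1.30-fold). Col1a2 read 9.25, 10.19, 9.84, 9.72 and 10.07 in KO 1 to 5, and 9.85, 10.06, 9.80, 10.08 and 9.41 in WT 1 to 5. Again KO 1 was lowest and an array labelled KO was highest, and the difference was -0.03 ± 0.18 (SE). The second probe sets of these genes gave 0.045 and 0.081.

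Type III collagen, a homotrimer of Col3a1 that runs with type I in soft tissues, had the same extremes. Col3a1 read 9.81, 10.75, 10.52, 10.14 and 10.97 in KO 1 to 5, and 10.41, 10.59, 10.18, 10.21 and 10 in WT 1 to 5. The WT values lay inside the range of the KO values. The difference was 0.16 ± 0.20 (SE), with an interval of 0.826 to 1.52-fold. It was 0.32 without KO 1, 0.029 without KO 5 and 0.048 without WT 4 and WT 5. The second, dimmer probe set, which followed the first at r = 0.92, gave 0.33.

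The promoters of Col1a2 and Col3a1 are shown because both are main fibrillar chains and the DNA before their starts holds different matches. The sequences are the 250 bases before the annotated start from RefSeq (build GRCm38.p6, the reference strain and not 129), chr6:4505368-4505617 for Col1a2 and chr1:45311288-45311537 for Col3a1, both on the plus strand. Capitals mark matches to CCAAT (the CCAAT box), to the TATA box letters TATAAA, or to the GC box letters GGGCGG, each searched on both strands.
Col1a2: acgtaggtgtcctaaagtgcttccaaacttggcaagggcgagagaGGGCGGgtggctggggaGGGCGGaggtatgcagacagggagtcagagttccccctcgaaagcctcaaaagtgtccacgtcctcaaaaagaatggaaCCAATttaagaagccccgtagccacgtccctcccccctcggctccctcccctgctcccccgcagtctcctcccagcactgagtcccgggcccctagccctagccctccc
Col3a1: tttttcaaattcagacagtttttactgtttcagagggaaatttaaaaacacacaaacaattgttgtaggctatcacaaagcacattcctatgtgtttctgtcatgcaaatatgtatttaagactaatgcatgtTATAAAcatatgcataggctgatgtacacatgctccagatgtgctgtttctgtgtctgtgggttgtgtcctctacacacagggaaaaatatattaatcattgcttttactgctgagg

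The Col1a2 stretch held a CCAAT that begins 109 bases before the start and GGGCGG at 205 and 188 bases before it. The Col3a1 stretch held only a TATAAA that begins 117 bases before the start. RefSeq promoter windows of 300 bases (250 before and 50 after the start) were at hand for 33 of the 42 collagens, 36 windows in all. Of these, 13 held CCAAT (36.1%, against 37.4% of all 32851 windows), 5 held TATAAA (13.9% against 13.6%) and 22 held GGGCGG (61.1% against 35.7%). The median GC content was 59.9% in collagen windows and 52.7% in all windows. A match to such short letters is a description and not evidence of binding.

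Type V collagen, which sits inside type I fibres and limits their width, has chains encoded by Col5a1, Col5a2 and Col5a3. Col5a1 read 7.65 to 8.17 in arrays labelled KO and 7.41 to 8.31 in WT (difference 0.13 ± 0.15). Col5a2 was among the steadiest of the bright chains, at 9.22 to 9.42 in arrays labelled KO and 9.07 to 9.34 in WT, and its difference of 0.08 ± 0.063 had an interval of 0.962 to 1.17-fold. Col5a3 came closest to the threshold on the higher side. It read 7.73, 7.95, 7.91, 7.99 and 8.18 in KO 1 to 5, and 8.05, 7.90, 7.62, 7.46 and 7.52 in WT 1 to 5. WT 3, WT 4 and WT 5 lay below every KO value, while WT 1 and WT 2 lay among them. The difference was 0.24 ± 0.12 (limma unadjusted p = 0.068, adjusted p = 0.914), and it was 0.096 without WT 4 and WT 5. Without WT 1, and with the muscle covariate, it was 0.33 (limma unadjusted p = 0.012 and 0.013, adjusted p = 0.843 and 0.564). A second, dimmer probe set gave -0.018.

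The other fibrillar chains were Col2a1 and Col11a1, known from cartilage, with Col11a2, Col24a1 and Col27a1. Col2a1 read 5.50, 5.48, 5.85, 5.77 and 5.70 in KO 1 to 5, and 5.88, 5.95, 5.78, 5.75 and 6.02 in WT 1 to 5. KO 1, KO 2 and KO 5 lay below every WT value, and KO 3 and KO 4 lay among the WT values. Its difference of -0.22 ± 0.085 had the smallest unadjusted p of the collagens (0.026 by limma, adjusted p = 0.914; exact permutation p = 0.048), and it was -0.18 without KO 1 and without WT 5. Of 6 measured markers of cartilage and bone, 1 was higher and 5 were lower in arrays labelled KO (median -0.047), with list means of 4.55 to 4.71 in arrays labelled KO and 4.61 to 4.69 in WT. Their part in the Col2a1 values was not tested. Differences were 0.11 ± 0.071 for Col11a1, -0.03 ± 0.18 for Col11a2 and 0.08 ± 0.11 for Col27a1. Col24a1, at a mean signal of 2.66, was one of the dimmest collagens (interval -0.11 to 0.11).

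**Figure D2:**
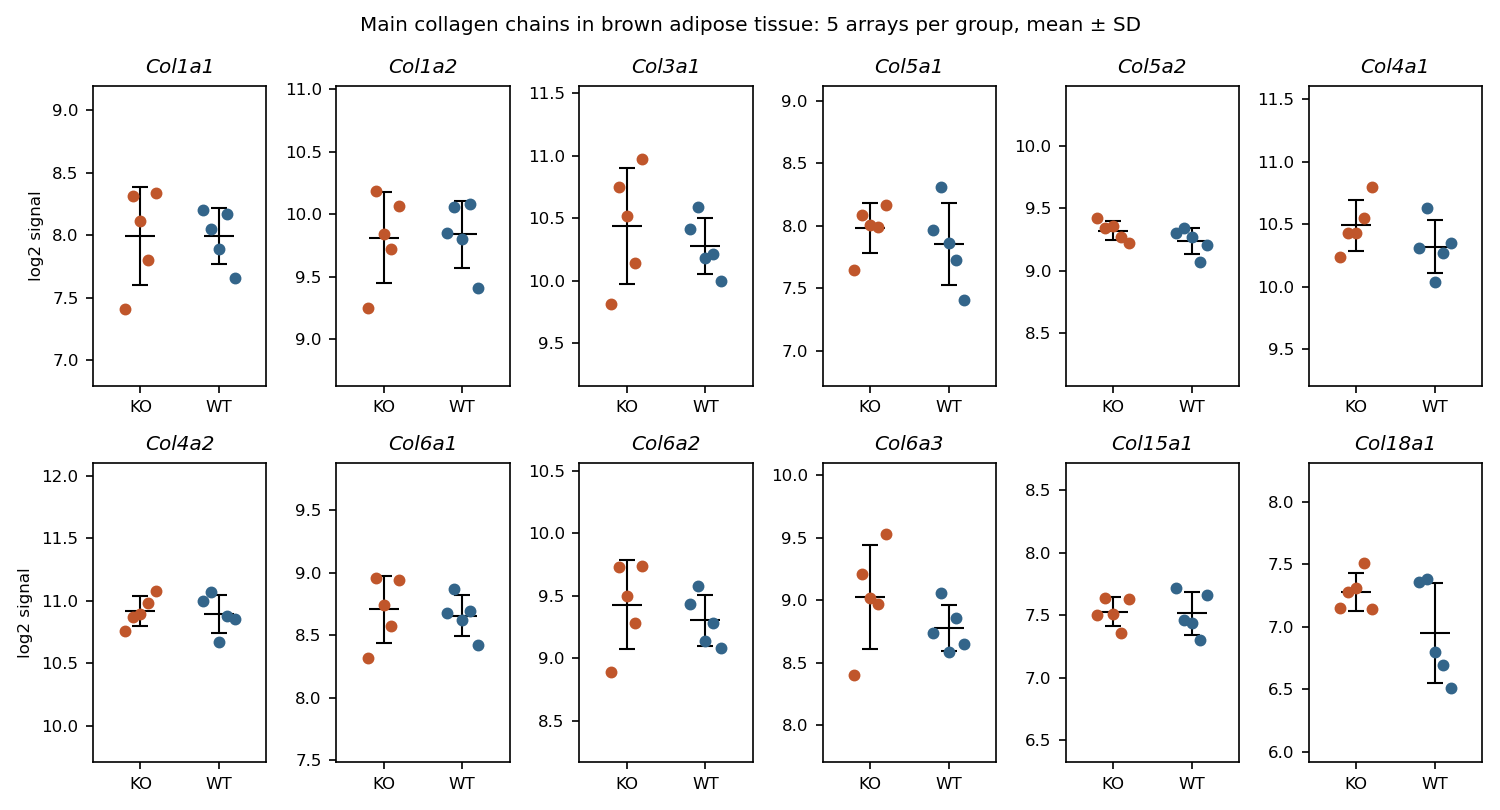
Log2 signal (y axis, the same span in every panel) of 12 chains in 5 arrays labelled KO and 5 WT arrays (points), with the mean and SD of each group in black. Every panel shows overlapping groups; the KO arrays spread further than the WT arrays in Col1a1, Col3a1 and Col6a3, and the WT arrays further in Col18a1.

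Basement membrane collagen gave no clearer difference. Col4a1 and Col4a2 encode the chains of the type IV network found in most tissues. Col4a1 read 10.24, 10.43, 10.43, 10.55 and 10.80 in KO 1 to 5, and 10.31, 10.63, 10.04, 10.27 and 10.35 in WT 1 to 5. KO 5 was highest and WT 3 lowest. The difference was 0.17 ± 0.12, with an interval of 0.939 to 1.35-fold, and a second probe set gave 0.051. Col4a2 read 10.76, 10.87, 10.89, 10.98 and 11.08 in KO 1 to 5, and 11, 11.07, 10.67, 10.88 and 10.85 in WT 1 to 5. It had the highest mean signal of the 42 probe sets (10.90), and its difference was 0.02 ± 0.084, or 0.894 to 1.15-fold.

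The chains Col4a3 to Col4a6 belong to type IV networks known from kidney, eye, ear and smooth muscle, and 3 of these 4 had mean signals below the array medians. Col4a4 read 4.83, 5.02, 4.80, 4.85 and 4.71 in KO 1 to 5, and 5.35, 4.88, 4.98, 4.99 and 4.99 in WT 1 to 5. WT 1 stood above the other 9 arrays. The difference was -0.20 ± 0.090 (limma unadjusted p = 0.050, adjusted p = 0.914), while a second probe set gave 0.10 and had r = -0.87 with it over the arrays, and another gave -0.052. Col4a3 differed by -0.14 ± 0.094 and Col4a6 by 0.10 ± 0.067; the second probe set of Col4a6 gave -0.11. Col4a5 spread over 1.41 log2 units, the widest range of any collagen, from 5.14 in WT 4 to 6.55 in KO 3, and differed by 0.23 ± 0.25. Its second probe set followed it at r = 0.90.

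The comparison of fibrillar with basement membrane collagens gave a difference near 0 whose sign depended on single arrays. The mean difference was 0.048 log2 units over the 11 fibrillar chains (6 higher, 5 lower) and 0.031 over the 6 type IV chains (4 higher, 2 lower), so the classes differed by 0.017. This was -0.04 without KO 2, -0.015 without KO 5, -0.012 without WT 5, 0.074 without KO 1 and 0.075 with the muscle covariate. The fibrillar mean minus the type IV mean was 0.28 ± 0.18 in arrays labelled KO and 0.26 ± 0.08 in WT (SD, n = 5 each). By array it was 0.0506, 0.508, 0.224, 0.207 and 0.405 in KO 1 to 5, and 0.253, 0.250, 0.298, 0.362 and 0.146 in WT 1 to 5. KO 1 was the lowest and KO 2 the highest. With the multiplexins counted as basement membrane collagens the classes differed by -0.018, and with the 7 fibrillar and 2 type IV chains at or above the median signal of all genes by -0.0003. No p is given for these class means, since the members were chosen with results of these data known.

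The multiplexins sit where basement membranes meet the connective tissue, and the end of the Col18a1 chain can be cut off as endostatin. Col18a1 read 7.15, 7.28, 7.31, 7.51 and 7.14 in KO 1 to 5, and 7.36, 7.38, 6.80, 6.69 and 6.51 in WT 1 to 5. WT 1 and WT 2 lay among the KO arrays, and WT 3, WT 4 and WT 5 lay below them all. Its difference of 0.33 ± 0.17 was the largest of the 42 (interval 0.975 to 1.62-fold, limma unadjusted p = 0.073, adjusted p = 0.914). It was 0.22 without WT 5 and 0.096 without WT 4 and WT 5. It was 0.43 without WT 1 and 0.44 without WT 2 (limma unadjusted p = 0.02 and 0.017, adjusted p = 0.843 and 0.583). With the muscle covariate it was 0.43 (limma unadjusted p = 0.022, adjusted p = 0.574). The second probe set, which followed the first at r = 0.98, gave 0.21. Col15a1 read 7.36 to 7.64 in arrays labelled KO and 7.30 to 7.72 in WT, a difference of 0.01 ± 0.088.

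Type VI collagen was higher on average in arrays labelled KO in 5 of 5 measured chains, beside 61.9% of collagens and 43.9% of genes. None passed the test. The count rests in part on differences near 0: without KO 5, Col6a1 was -0.0075 and Col6a5 -0.0087, and without WT 5 they were -0.0081 and -0.026. Its main form joins chains of Col6a1, Col6a2 and Col6a3, and Col6a3 is the source of endotrophin, a fragment released in fat. Col6a3 read 8.40, 9.21, 9.02, 8.97 and 9.53 in KO 1 to 5, and 8.74, 9.06, 8.59, 8.86 and 8.65 in WT 1 to 5. KO 1 was the lowest and KO 5 the highest of all arrays. The difference was 0.25 ± 0.18 (interval 0.908 to 1.55-fold), and it was 0.12 without KO 5 and 0.40 without KO 1 (limma unadjusted p = 0.011, adjusted p = 0.895 in that fit). Col6a1 differed by 0.05 ± 0.12 and Col6a2 by 0.13 ± 0.16. Col6a4 (0.06 ± 0.079) and Col6a5 (0.02 ± 0.066) were dim, and Col6a5 had the lowest mean signal of the 42 probe sets, 2.62.

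FACIT collagens, which decorate the surface of fibrils, were higher in 5 and lower in 4 of 9 members. Col12a1 read 6.64, 6.58, 6.92, 6.87 and 7.01 in KO 1 to 5, and 6.50, 6.85, 6.64, 6.63 and 6.78 in WT 1 to 5, a difference of 0.12 ± 0.096. Col14a1 was low in KO 1 (5.74) and in WT 5 (5.95), lay between 6.31 and 7.11 in the others, and differed by -0.24 ± 0.25. The remaining members (Col9a1, Col9a2, Col9a3, Col16a1, Col19a1, Col20a1 and Col22a1) had differences from -0.04 to 0.08. Dimmer probe sets of Col20a1 gave 0.16, 0.14 and 0.26, and the mean of all its probe sets gave 0.16 (limma unadjusted p = 0.035, adjusted p = 0.919).

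The remaining collagens also stayed within the spread of the arrays. Col8a1, a short-chain collagen of vessel walls, read 6.55, 6.63, 6.40, 6.47 and 6.30 in KO 1 to 5, and 6.36, 6.49, 6.46, 6.14 and 5.99 in WT 1 to 5. WT 4 and WT 5 were lowest; the difference was 0.18 ± 0.10, and 0.038 without them. Col8a2 (-0.12 ± 0.087) and Col10a1 (-0.13 ± 0.089), the collagen of growth plate cartilage, were dim. Col7a1, which forms the anchoring fibrils of skin, differed by 0.10 ± 0.12 and Col26a1 by 0.00 ± 0.077. Col7a1 was 0.34 without WT 5, KO 1 and KO 3 (limma unadjusted p = 0.0017, adjusted p = 0.939 in that fit). Those arrays were left out as the lowest in muscle markers. For Col7a1, KO 1 (6.06) and KO 3 (5.98) were also the lowest of all arrays, and WT 5 (6.35) the highest in WT. Leaving them out was therefore bound to raise its difference. Of the transmembrane collagens, Col23a1 had the smallest unadjusted p. It read 5.91, 5.95, 6.07, 5.81 and 5.92 in KO 1 to 5, and 6.11, 5.97, 6.11, 5.89 and 6.15 in WT 1 to 5, a difference of -0.11 ± 0.067. Col13a1, Col17a1 and Col25a1 differed by 0.00 ± 0.11, -0.03 ± 0.098 and -0.03 ± 0.077.

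How far a collagen could be read depended on its signal. Of the 42, 15 had a mean signal below the array medians, and 27 had more than 1 probe set. Among 14 such collagens at or above the median signal of all genes, the brightest second probe set had a median r of 0.84 with the first over the 10 arrays (range 0.19 to 0.98). Among 13 below it the median r was 0.11 (range -0.87 to 0.90). In 16 of the 27 at least 1 further probe set gave a difference of opposite sign. These values are descriptions over arrays that the probe sets share.

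The variation between arrays was ordered, though not by label. Most chains that join in 1 molecule varied together over the 10 arrays, with type V as the exception among 5 pairs. Col1a1 and Col1a2 had Pearson r = 0.93 and Spearman rho = 0.89, with permutation p = 0.0007 and 0.0022 for the r and the rho after adjustment over 5 pairs. Col6a1 and Col6a2 had r = 0.97 and rho = 0.93 (permutation p = 0.0001 and 0.0022 adjusted), and Col6a1 and Col6a3 had r = 0.87 and rho = 0.89 (0.0011 and 0.0022 adjusted). Before adjustment the 3 values of permutation p for r were 0.00028, 2e-05 and 0.00064, and 2e-05 is the smallest that 100000 resamples can give. Without KO 1 and the other array farthest from the median (WT 5 for type I, KO 2 for type VI), r was 0.77, 0.93 and 0.80 over 8 arrays. With the group means taken out it was 0.93, 0.97 and 0.90, and with the muscle marker mean taken out as well it was 0.91, 0.96 and 0.86.

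The type IV pair Col4a1 and Col4a2 had r = 0.88 and rho = 0.82 (permutation p = 0.0011 and 0.0058, 0.0014 and 0.0072 adjusted). Taking out the group means gave 0.93. Without KO 5 and WT 3, the arrays at either end, r was 0.73 over 8 arrays (exact permutation p = 0.048, 0.060 adjusted). The relation thus did not pass after adjustment without both arrays. With 1 array left out at a time, r was 0.80 (without WT 3) to 0.96. These genes lie head to head on mouse chromosome 8: in RefSeq (GRCm38.p6) the start of Col4a1 is at position 11312826 on the minus strand and that of Col4a2 at 11312805 on the plus strand, so their first 22 bases overlap. CCAAT and GGGCGG were found in both promoter windows, which share 78 bases. Col4a5 and Col4a6 on chromosome X are likewise head to head, with 1342 bases between their starts.

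Type V chains did not show this pattern. Col5a1 and Col5a2 had r = 0.27 and rho = 0.30 (permutation p = 0.44 and 0.40, unchanged by adjustment), and r = 0.63 without KO 1 and WT 5. The values of Col5a2 covered 0.35 log2 units and those of Col4a2 0.41, and the second probe set of Col5a2 had r = 0.43 with the first. The mean of all probe sets per chain gave r = 0.53 for this pair.

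Across types, in 3 pairs added after the data were seen, Col1a1 followed Col3a1 at r = 0.89 (rho = 0.89) and Col6a1 at r = 0.92 (rho = 0.87), with permutation p = 0.00039 for both r after adjustment over these 3. With Col4a1 it had r = 0.41 (rho = 0.38, permutation p = 0.24 for r), and r = 0.32 without KO 1 and WT 5. Whether any of these correlations, that of type V included, differ from each other was not tested. Without KO 1 and WT 5 the values for Col3a1 and Col6a1 were 0.79 and 0.78.

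**Figure D3:**
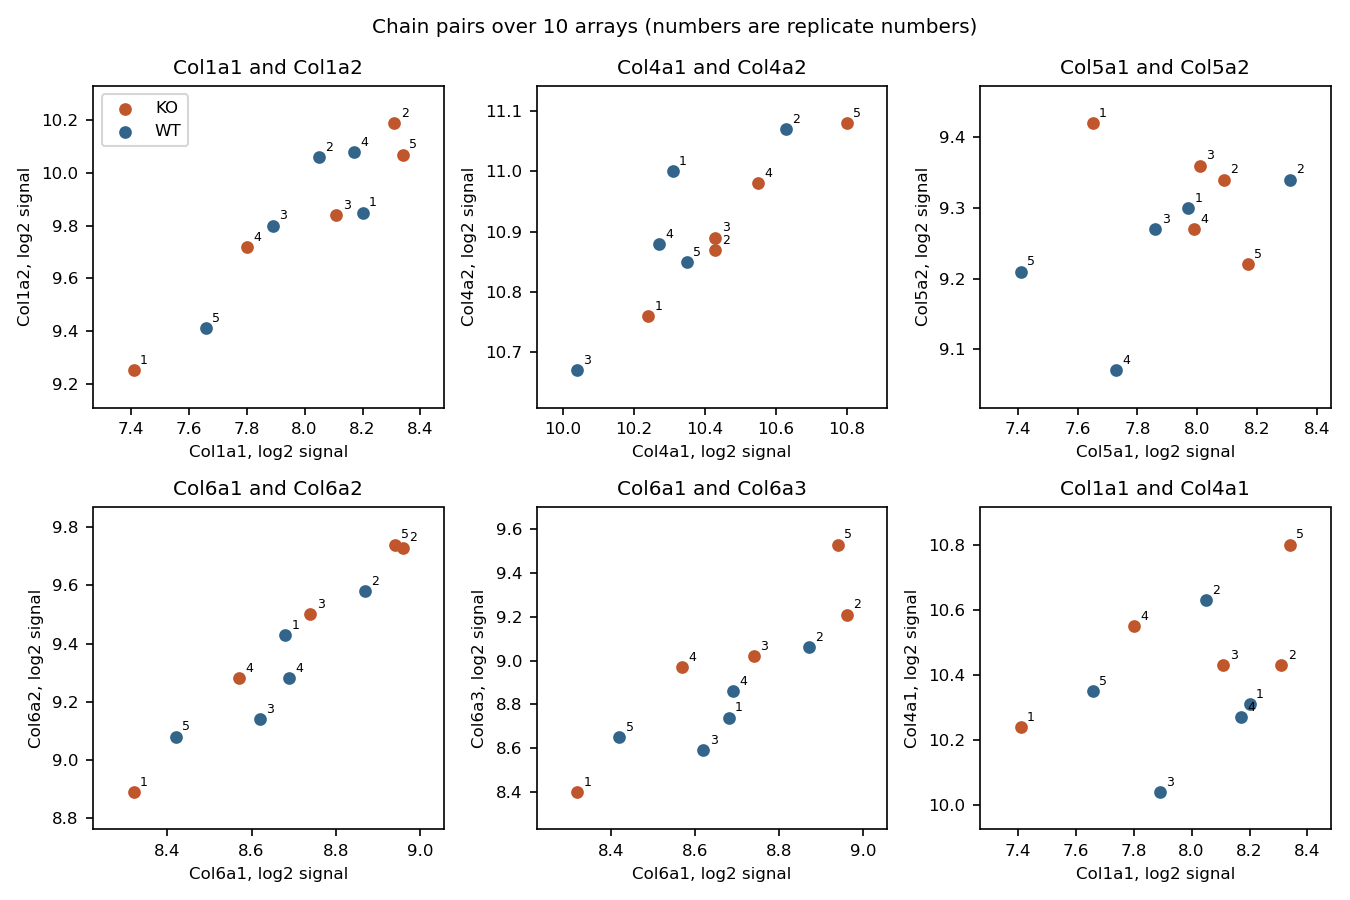
Log2 signals of 2 chains against each other in 5 arrays labelled KO and 5 WT arrays (points, with replicate numbers), for 5 pairs that share a molecule and for Col1a1 with Col4a1. Points of both labels run along 1 line for Col1a1 with Col1a2 (r = 0.93) and Col6a1 with Col6a2 (r = 0.97), and scatter for Col5a1 with Col5a2 (r = 0.27).

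The array KO 1 stood at the low end of this shared variation. It was the lowest of the 10 arrays for 6 of 6 chains of types I, III and VI among the 12 main chains (Col1a1, Col1a2, Col3a1, Col6a1, Col6a2 and Col6a3), and KO 5 was highest for 4 and KO 2 for 2 of them. For the 6 other main chains the lowest array was WT 3, WT 4 or WT 5, 2 chains each. Over all 42 collagens KO 1 was lowest for 9, WT 4 for 7 and WT 5 for 6. The 11 measured fibroblast markers had a list mean of 7.34, 7.91, 7.58, 7.62 and 7.43 in KO 1 to 5, and 7.84, 7.74, 7.90, 7.79 and 7.43 in WT 1 to 5. KO 1 was lowest there too, while KO 5, highest in 4 of those chains, was near the low end of that list. Of the 11 markers 2 were higher and 9 lower in arrays labelled KO (median -0.17), and 0 passed (2 at an unadjusted p under 0.05). Among all genes 43.9% were higher, and 4.68% had an unadjusted p under 0.05. Muscle markers were lowest in KO 3, KO 1 and WT 5, where Col1a1 was 8.11, 7.41 and 7.66. With the muscle marker mean as a covariate the difference was 0.11 for Col1a1 and 0.29 for Col3a1. Endothelial markers, at 8.25 to 8.31 in arrays labelled KO and 7.88 to 8.35 in WT, were lowest in WT 3, as were Col4a1 and Col4a2. Of the 12 endothelial markers 10 were higher and 2 lower (median 0.11), 1 of them at an unadjusted p under 0.05, beside 10 of 15 higher among the basement membrane partners. Mural cell markers ranged from 8.03 to 8.75 in arrays labelled KO and 7.90 to 8.52 in WT (5 higher, 3 lower, 0 at an unadjusted p under 0.05). Macrophage markers ranged from 7.20 to 7.62 in arrays labelled KO and 7.32 to 7.69 in WT (3 higher, 7 lower, 1 at such a p). The 8 measured brown adipocyte markers were bright, at list means of 11.74 to 11.98 in arrays labelled KO and 11.73 to 12.38 in WT. Of these 8, 7 were lower, 1 at an unadjusted p under 0.05. The part of each cell type in the collagen values was not tested.

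**Figure D4:**
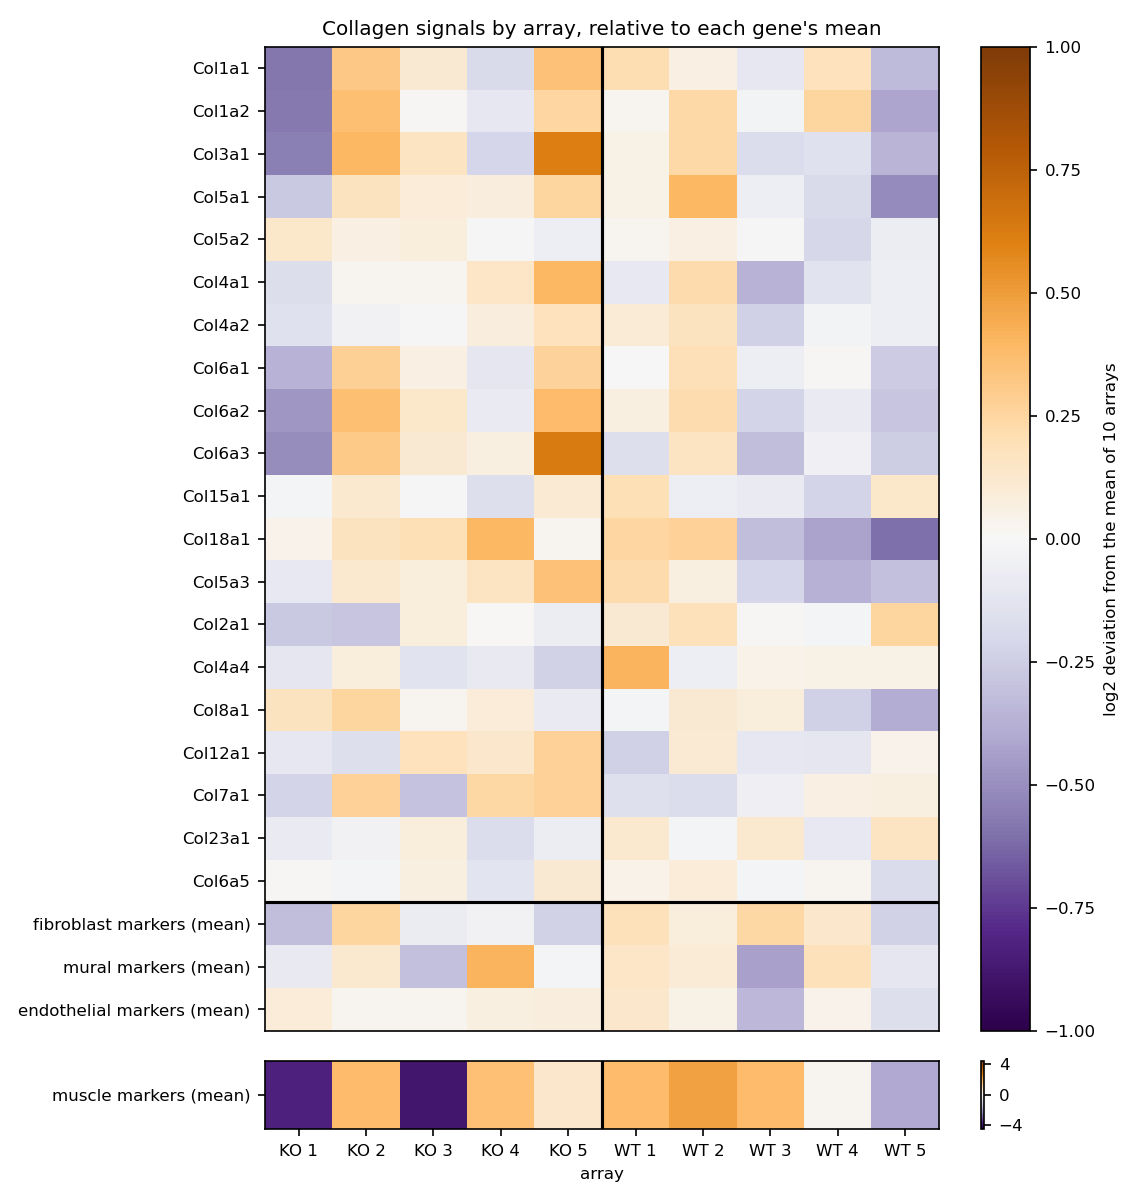
Deviation of each gene's log2 signal from its mean over 10 arrays (colour), for 20 collagens (rows) in arrays labelled KO (left of the line) and WT (right), with the means of 3 marker lists below and that of muscle markers on a wider scale of its own. KO 1 is low in Col1a1, Col1a2, Col3a1 and Col6a1 to Col6a3 together, and KO 1 and KO 3 are low in muscle markers.

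Genes that help collagen fold, set and break down gave 0 calls in any of 7 lists by limma. Of 19 measured genes of folding and chain modification, 7 were higher and 12 lower (median -0.022). P3h1, a prolyl 3-hydroxylase that modifies fibrillar chains, read 6.16, 6.13, 6.29, 6.18 and 6.17 in KO 1 to 5, and 6.32, 6.37, 6.39, 6.41 and 6.29 in WT 1 to 5. All KO values lay at or below the lowest WT value, and 0.627% of all genes had groups that did not overlap. The difference was -0.17 ± 0.049 (limma unadjusted p = 0.0047, adjusted p = 0.914), and with the brightest probe set not named _s_at, _x_at or _a_at it was -0.028. Its relatives P3h3 and P3h4 differed by -0.18 ± 0.084 and -0.07 ± 0.061.

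Among 11 measured genes of procollagen processing and cross-linking, 8 were higher and 3 lower (median 0.070, 0 at an unadjusted p under 0.05). Pcolce, which speeds the trimming of procollagen ends, read 9.23, 9.09, 9.68, 9.99 and 9.44 in KO 1 to 5, and 9.29, 9.74, 8.82, 8.84 and 8.60 in WT 1 to 5. The difference was 0.43 ± 0.22, and it was 0.20 without WT 4 and WT 5. Tgm2, a transglutaminase that cross-links matrix proteins, differed by 0.22 ± 0.11 and Adamts3, a procollagen N-proteinase, by 0.14 ± 0.067. Of 14 proteins that bind fibrils, 8 were higher and 6 lower. Sparc, a collagen-binding matrix protein, differed by 0.21 ± 0.11, and the small proteoglycans Ogn and Dcn by -0.33 ± 0.18 and -0.22 ± 0.14.

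The partners of type IV collagen in basement membranes were higher in 10 and lower in 5 of 15 measured genes (median 0.082). Lamc1, the laminin gamma chain of most basement membranes, differed by 0.23 ± 0.11, Lamc3 by 0.24 ± 0.14, and Pxdn, the peroxidase that forms the sulfilimine cross-links of type IV collagen, by 0.32 ± 0.19. Pxdn was 0.031 without WT 4 and WT 5. Genes of collagen breakdown were higher in 11 and lower in 6 of 17, and the 3 with the smallest unadjusted p were all lower. The protease inhibitor Timp2 differed by -0.36 ± 0.19, the gelatinase Mmp9 by -0.15 ± 0.073, and Mrc2, a receptor that takes up collagen fragments, by -0.14 ± 0.072. Mmp12, named after its values were seen, had the widest difference of the breakdown list, 0.94 ± 0.55. It read 7.31 in KO 5, 3.84 to 4.46 in the other arrays labelled KO and 3.59 to 4.22 in WT. Collagen receptors were even at 4 and 4 of 8, with Ddr1 at -0.12 ± 0.063, Ddr2 at 0.07 ± 0.080 and Itga2 at 0.02 ± 0.053.

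In TGF-beta signalling, the best known inducer of fibrillar collagens, 11 of 15 measured genes were higher and 4 lower (median 0.073), with 2 at an unadjusted p under 0.05. Over all genes 43.9% were higher and 4.68% had such a p. The ligand Tgfb1 read 6.92, 7.05, 7.07, 7.12 and 6.82 in KO 1 to 5, and 6.87, 6.86, 6.74, 6.87 and 6.54 in WT 1 to 5. KO 5 lay among the WT values and the other KO arrays above them. The difference was 0.22 ± 0.081 (limma unadjusted p = 0.020, adjusted p = 0.914), and 0.095 with the mean of its probe sets. Smad7, an inhibitor of the pathway, differed by 0.25 ± 0.11, and Ltbp1, which binds the latent ligand, by -0.21 ± 0.10. Ccn2, a matrix protein induced by TGF-beta, was named after its values were seen: it had the widest difference of the list, 0.87 ± 0.47, with KO 4 at 8.22 and KO 3 at 5.55, and WT values from 5.17 to 6.83.

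**Figure D5:**
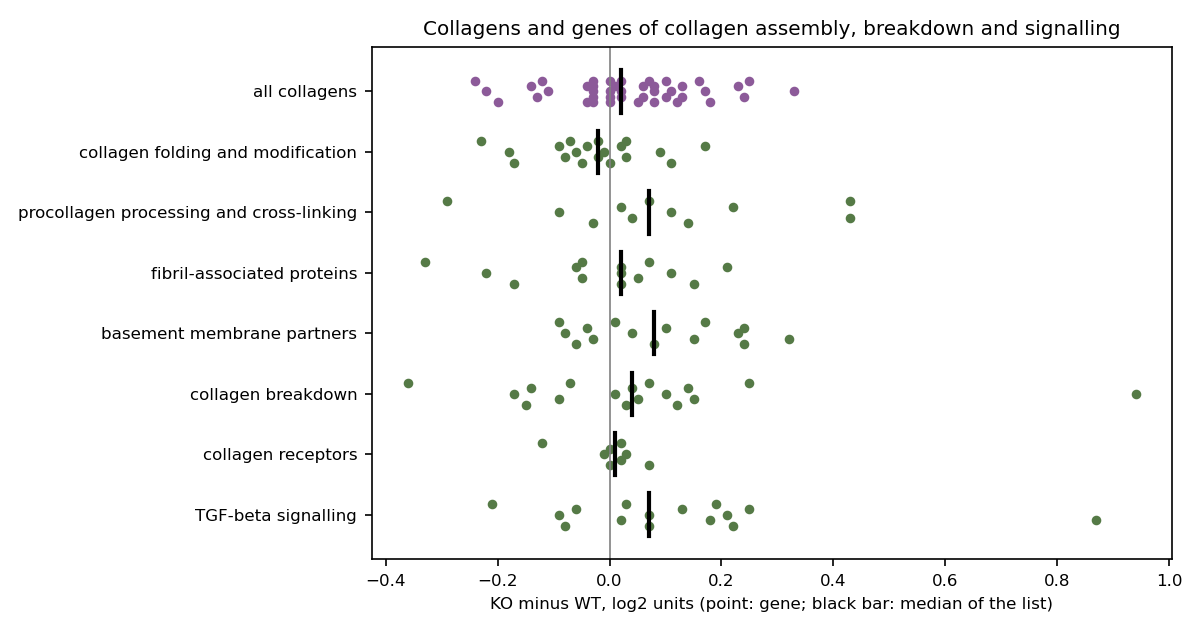
Difference between arrays labelled KO and WT (x axis, log2 units, KO minus WT) for each gene (points) of the collagens and of 7 lists of collagen-related genes, with the median of each list as a black bar. Medians lie between -0.022 and 0.082, and no gene passes after adjustment over all genes.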

How the data were processed

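RNA of brown adipose tissue from 5 KO and 5 WT mice was measured, per the labels, on 1 array per sample; groups and replicate numbers come from the titles. The deposited values are log2 signals made by the authors with RMA, per the submitters' processing notes; no settings are stated, and RMA hides a change shared by most transcripts. The number of arrays limits the precision. Of 45101 probe sets, 34945 had 1 annotated gene; for each of 18193 genes the brightest was kept. Differences (KO minus WT) were fitted over all genes with limma 3.58.1 in R 4.3.3 (lmFit, eBayes, no covariates; two-sided; Benjamini-Hochberg over all genes, called under 0.05), and the fit was tested on simulated data. Exact two-sided permutations used all 252 splits of the arrays; correlations used 100000 resamples (scipy 1.17.1). Named genes are Sirt3, 12 main chains, the collagens with the smallest unadjusted p (3 per direction and 1 per class), the brightest and dimmest, and 3 genes per pathway list; other collagens are given by their differences. Members and lists were chosen with earlier results of these data known. Where arrays are not separate mice, p-values measure only the spread between these samples, which may be technical. Alternatives covered probe set choice, normalization, a signal filter, variance models, array weights, a muscle covariate, the replicate block and leaving out arrays. Same-numbered arrays did not deviate together (correlations from -0.395 to 0.236). This gave no sign that numbers pair the arrays, but it cannot exclude a pairing, and the main fit used none. Figures were drawn with matplotlib 3.10.9.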

Additional observations from a re-analysis of the deposited data

Results flagged for a closer look

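Of 88 groups of 5 arrays tested for a single array far from the others, 2 stood out, where chance flags about 1 in 20. Col4a4 read 5.35 in WT 1, against 4.88 to 4.99 in the other WT arrays. The mean of the collagen receptor list was 6.46 in WT 1, against 6.53 to 6.56 in the other WT arrays.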

How the results depend on the processing

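Under all 21 alternatives, 0 collagens, 0 pathway genes and 0 genes of the whole table were called by limma (smallest adjusted p in any setting 0.241). The replicate block, a pairing not known to hold here, also gave 0. Its count of 26 collagens higher was fixed in advance, since this block leaves each difference unchanged. At an unadjusted p under 0.05 there were 0 to 5 collagens (5 with the muscle covariate and without WT 2, 0 without WT 5). The share of all genes at that level was 4.68% in the main fit and was not counted in the alternatives. These counts thus do not show a gain of collagens over other genes. Of 42 collagens 26 were higher; with genes at or above the median signal it was 15 of 19, where 42.5% of such genes were higher, and leaving out 1 array gave 23 to 29. The fibrillar minus type IV difference ranged from -0.04 to 0.074 when 1 array was left out and from -0.018 to 0.082 otherwise. Signs turned for Col1a1 with the mean of all probe sets (0.022), a further quantile normalization (0.0031), array weights (0.0019), the muscle covariate (0.11) and without WT 5, KO 1 and KO 3 (0.071). Col1a2 turned with the mean of probe sets (0.027), without _s_at, _x_at and _a_at sets (0.081), with the muscle covariate (0.11) and without WT 5, KO 1 and KO 3 (0.045). Without WT 4 and WT 5, Col5a1 was -0.064, Col6a1 -0.016, Col15a1 -0.01 and Col6a5 -0.031; Col6a5 was -0.045 without WT 5, KO 1 and KO 3. Leaving out 1 array gave -0.088 to 0.15 for Col1a1, -0.14 to 0.11 for Col1a2, -0.033 to 0.068 for Col4a2, -0.013 to 0.15 for Col6a1, -0.042 to 0.062 for Col15a1, -0.026 to 0.051 for Col6a5 and -0.0062 to 0.05 for Itga2. In all, 827 of 862 recomputed gene differences kept their sign. Part of this count was fixed in advance. The trend and robust variance model, the replicate block and the signal filter leave each difference as it was. Among the chain pairs, alternatives for which were chosen after seeing the data, Col4a1 with Col4a2 fell to r = 0.73 without KO 5 and WT 3 (adjusted permutation p = 0.06). The cause of these changes was not tested.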
